A study of Mus musculus with 2 samples.

Results

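C-fibre low-threshold mechanoreceptors (cLTMRs) are the unmyelinated sensory neurons that respond to light, slow touch of hairy skin. In single-cell RNA-sequencing (scRNA-seq) of the mouse trigeminal ganglion (TG), they were taken here as neurons with at least 200 CPM of both P2ry1 and Piezo2, under 100 CPM of Mrgprd, at most 2 Trpm8 transcripts and under 500 CPM of Nefh. CPM is the number of unique molecular identifiers (UMIs, 1 for each captured transcript) of a gene among 1000000 UMIs of a cell or a group of cells. The rule found 114 cLTMRs among 1204 neurons and 11378 cells, 69 of them control and 45 CFA.

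The TG holds the cell bodies of the sensory neurons of the face and mouth. cLTMRs depend on the mechanically gated channel Piezo2 for touch and carry the receptor pair Gfra2 and Ret for trophic factors. They are known for tyrosine hydroxylase (Th), the vesicular glutamate transporter Slc17a8 and the secreted protein Tafa4, and for lacking the peptides and heat-gated channels of classical nociceptors. The transcription factor Runx1 is needed for their development.

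The study compared the right TG of male C57BL/6 mice aged 5 to 8 weeks a week after 20 μL of complete Freund's adjuvant (CFA), an oil emulsion that provokes lasting inflammation, had been injected into the right vibrissal pad, with the TG of control mice. The labels call the control untreated, whereas the methods of the study describe saline in the same place. Each condition is represented by a single library, made with the BD Rhapsody whole transcriptome kit, and the number of mice in a library is not given in the sources used here. Every difference between control and CFA below is therefore a difference between 1 library and 1 library, with no replicate check and no test, and a batch difference between the libraries and the treatment cannot be told apart.

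The control library held 7298 cells with 48916096 UMIs and the CFA library 4080 cells with 22096268 UMIs. After cells with fewer than 150 genes or over 25% mitochondrial UMIs were left out, 6695 and 3661 remained. Of these, 795 and 409 were neurons, with at least 5000 UMIs and at least 10 UMIs of the neuronal genes Tubb3, Snap25 and Stmn2. cLTMRs made up 8.68% of the control neurons (exact Clopper-Pearson 95% interval 6.82 to 10.9) and 11% of the CFA neurons (8.14 to 14.4), and these intervals overlap. All intervals in the text are exact 95% intervals that cover counting error only, not the spread between mice. The 69 control cLTMRs had 5779 to 98674 UMIs with a median of 53401, and the 45 CFA cLTMRs 6233 to 105060 with a median of 47600. Their median number of genes was 8191 and 7797, and the median mitochondrial share 2.89% and 3.10%. Of the numeric cell labels, 27 occur in both libraries, and none of these labels marks a cLTMR in both.

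The members were chosen by their measured levels of P2ry1, the receptor for extracellular ADP, and Piezo2, and by the limits on Mrgprd, Trpm8 and Nefh, so the values of these 5 genes are a description. P2ry1 had its lowest, median and highest value in single members at 267, 599 and 1208 CPM in control members and 284, 588 and 965 CPM in CFA members. Piezo2 had them at 217, 690.4 and 3836 CPM in control members and 322, 912 and 5169 CPM in CFA members. Short of P2ry1 alone were 28 control and 24 CFA neurons, of which 2 and 1 had 100 CPM or more. The highest of them had 187 and 103 CPM, and the lowest members 267 and 284 CPM. A shortage of Piezo2 alone excluded 0 control neurons and 1 CFA neuron. The limit on Nefh, a neurofilament of large myelinated neurons, kept out 5 control and 4 CFA neurons with 501 to 1408 CPM, and the limits on Mrgprd and Trpm8 kept out none.

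Of the markers that the rule did not use, Tafa4, Cd34 and C1ql4 were present in most members. Tafa4 had its lowest, median and highest value at 44.4, 441 and 970.1 CPM in control members and 0, 439 and 992 CPM in CFA members, and 0 control and 2 CFA members held no UMI of it. Cd34, a surface sialomucin (GRCm38 chr1:194938819-194961279), had them at 0, 362 and 1032 CPM in control members and 85.6, 427 and 1090.4 CPM in CFA members. C1ql4, a secreted protein of the C1q family (chr15:99084086-99087817), had them at 0, 303 and 1476 CPM in control members and 0, 334 and 1290.4 CPM in CFA members. Summed over the other neurons, these 3 genes stood at 16.1 and 12.9 CPM, 4.52 and 4.10 CPM and 3.17 and 2.25 CPM (control first, here and in all such pairs). The members held 75.6% and 83.9% of all neuronal Tafa4 UMIs, 91% and 94.1% of those of Cd34 and 93.9% and 96.2% of those of C1ql4. Single other neurons reached 274 and 343 CPM of Tafa4. Of the 6 genes that mark cLTMRs, P2ry1 and Piezo2 were thus set by the rule, Tafa4, Cd34 and C1ql4 were found in most members, and Th was uneven.

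**Figure D1:**
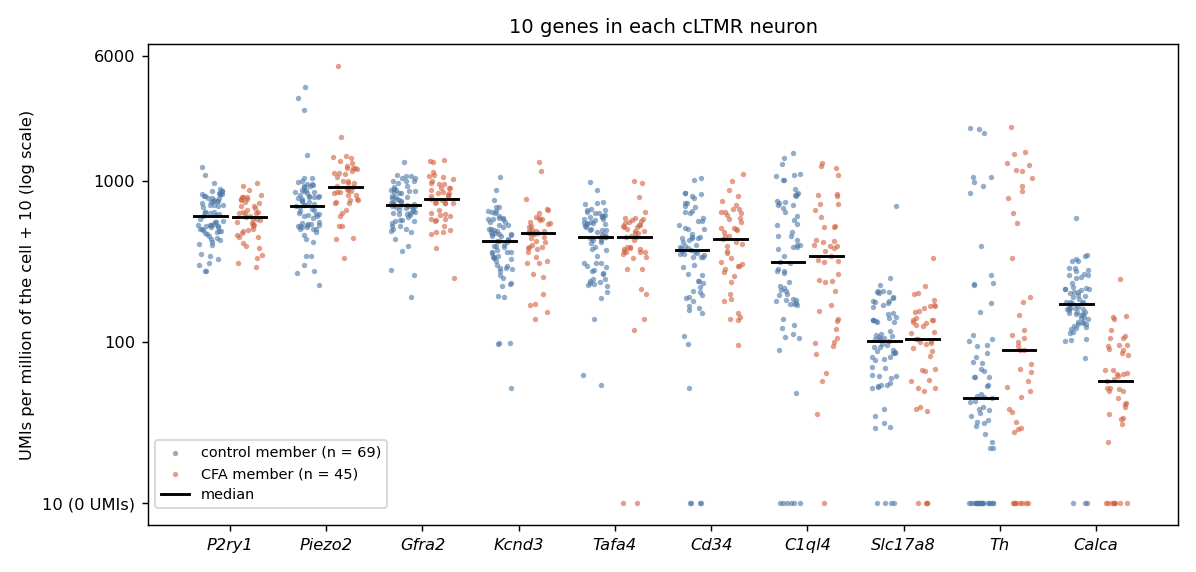
Level of 10 genes in each cLTMR neuron, on a log axis of CPM of that cell plus 10; each point is 1 of 69 control (blue) or 45 CFA (orange) members and each bar the median of a library. Gfra2 and Kcnd3 have no member at 0, Th spreads from 0 to over 2000, and the Calca median is 163 in the control and 47.6 in the CFA members.

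Th, the rate-limiting enzyme of catecholamine synthesis (chr7:142892752-142931128), split the members. Its lowest, median and highest value was 0, 35.2 and 2106 CPM in control members and 0, 78.7 and 2136 CPM in CFA members. It was among the 15 genes that varied most between members in both libraries, out of 931 genes with enough UMIs, beside Malat1, Meg3, S100a6, Bc1, Tmsb4x and 9 others, mostly mitochondrial. Without a single Th UMI were 19 of 69 control and 8 of 45 CFA members, and 500 CPM or more was reached by 8 control members, 11.6% (5.14 to 21.6), and 13 CFA members, 28.9% (16.4 to 44.3). These few cells held 73.9% and 88.9% of the Th UMIs of their members. Members without Th had a median of 45381 and 23355 UMIs against 50078 and 48058 UMIs in those at 500 CPM or more, so that the CFA members without Th were shallower; the part of depth in this was not tested. With every neuron thinned to 5000 UMIs, 31.9% of control and 44.4% of CFA members still showed a Th UMI, compared with 4.82% and 3.30% of the other neurons. In cells with at most 2 UMIs of the neuronal genes, which should lack Th, 0.269% and 0.127% held a Th UMI at a median depth of 1268 and 1074 UMIs.

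Outside the cLTMRs, Th of 500 CPM or more was found in 2 of 50 Trpm8 neurons and 1 of 37 Nefh-high neurons of the control library, and in none of its 179 Mrgprd, 49 Mrgpra3 and 411 remaining neurons. In the CFA library no other neuron reached it, and 0 of 24 Trpm8 neurons allows a share of up to 14.2%. The summed Th level of the Trpm8 neurons was 139 and 19.6 CPM, that of the Nefh-high neurons 43.5 and 22.8 CPM and that of the Mrgprd neurons 1.34 and 1.02 CPM.

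**Figure D2:**
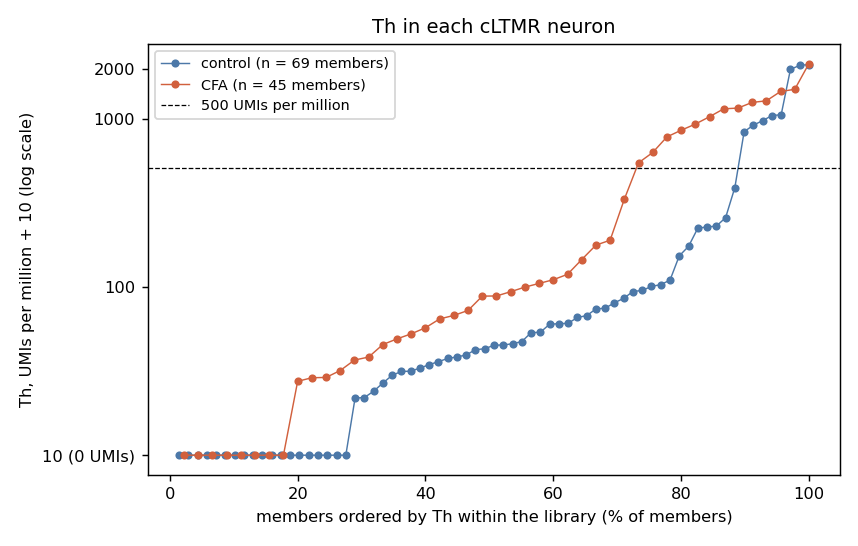
Th in each cLTMR neuron, in CPM plus 10 on a log axis, with the members of each library put in order of their Th value along the x axis in percent; the dashed line marks 500 CPM. The control curve (blue, 69 members) crosses the line for 8 members and the CFA curve (orange, 45 members) for 13, and 19 and 8 members lie at 0.

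The 150 bases before the start site of Th and Tafa4 are shown, since Th is the uneven marker and Tafa4 was found in most members. They come from RefSeq (GRCm38.p6), both on the minus strand, and run 5′ to 3′ with the cyclic AMP response element, TGACGTCA, in capitals. The Th window lies inside the span of the gene given above, which comes from GENCODE and reaches further upstream than the RefSeq start.
Th, chr7:142899996-142900145: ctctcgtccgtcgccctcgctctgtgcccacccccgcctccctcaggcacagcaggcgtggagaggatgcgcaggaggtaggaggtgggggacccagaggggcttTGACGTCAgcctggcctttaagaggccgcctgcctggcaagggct
Tafa4, chr6:97060412-97060561: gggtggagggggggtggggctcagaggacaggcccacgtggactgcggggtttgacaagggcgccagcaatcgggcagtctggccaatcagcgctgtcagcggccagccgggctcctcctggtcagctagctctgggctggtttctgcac
Th carries this element with its first base 45 bases before the start, whereas Tafa4 has none within 250 bases. Of 32851 promoters searched over 250 bases on both strands, 508 (1.55%) hold it, and it is in none of the 24 promoters of the 14 matched genes among the 15 with the highest ratios in cLTMRs. The core letters bound by RUNX factors, TGTGGT on either strand, are in neither sequence, in 3 of these 24 promoters (those of Smyd1, Prss23 and Nxpe2) and in 14% of all promoters. A match in letters is a description of the sequence and says nothing of binding.

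Across the transcriptome, 673 of 12946 genes with at least 100 UMIs over all neurons (5.2%) were at least 2-fold higher in cLTMRs than in all other neurons in both libraries, and 1565 (12.1%) were at least 2-fold lower. The median gene lay at -0.03 and -0.06 on the log2 scale. Among genes with at least 20 UMIs in the members, the 15 with the highest ratios were Ceacam10, Nccrp1, C1ql4, Wfdc2, Slc51a, Cacna1i, Cd34, Smyd1, Prss23, Slc17a8, Scin, Nxpe2, Wnt11, Sema3e and Cdh9. All of these followed from a split of the cells by P2ry1 and Piezo2, and no test was made of them.

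Ceacam10, a member of the carcinoembryonic antigen family (chr7:24777206-24784657), had the highest ratio. Its level was 185 CPM (171 to 199) in the control members and 218 CPM (199 to 239) in the CFA members, while all other neurons together held 11 and 2 UMIs of it. It was not in every member: 29 of 69 and 21 of 45 members held none, and the lowest, median and highest value was 0, 77.7 and 917 CPM in control members and 0, 85.9 and 983 CPM in CFA members. Wfdc2, a secreted protease inhibitor-like protein (chr2:164562413-164568510), reached 315 CPM (298 to 334) in the control members and 319 CPM (295 to 343) in the CFA members, against 2.45 and 1.23 CPM in the other neurons. Slc17a8, which loads glutamate into vesicles (chr10:89574020-89621253), was at 106 CPM (96.4 to 117) in the control members and 101 CPM (88.3 to 116) in the CFA members and lacked a UMI in 4 members of each library. The other vesicular glutamate transporters differed, since Slc17a6 had 519.8 and 639 CPM in cLTMRs and 417 and 526 CPM in the other neurons, and Slc17a7 had 3 and 1 UMIs, with log2 ratios of -2.57 (-4.86 to -0.99) and -3.97 (-9.28 to -1.46). Cckar, a cholecystokinin receptor, was at 279.6 and 264 CPM compared with 2.82 and 5.05 CPM.

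**Figure D3:**
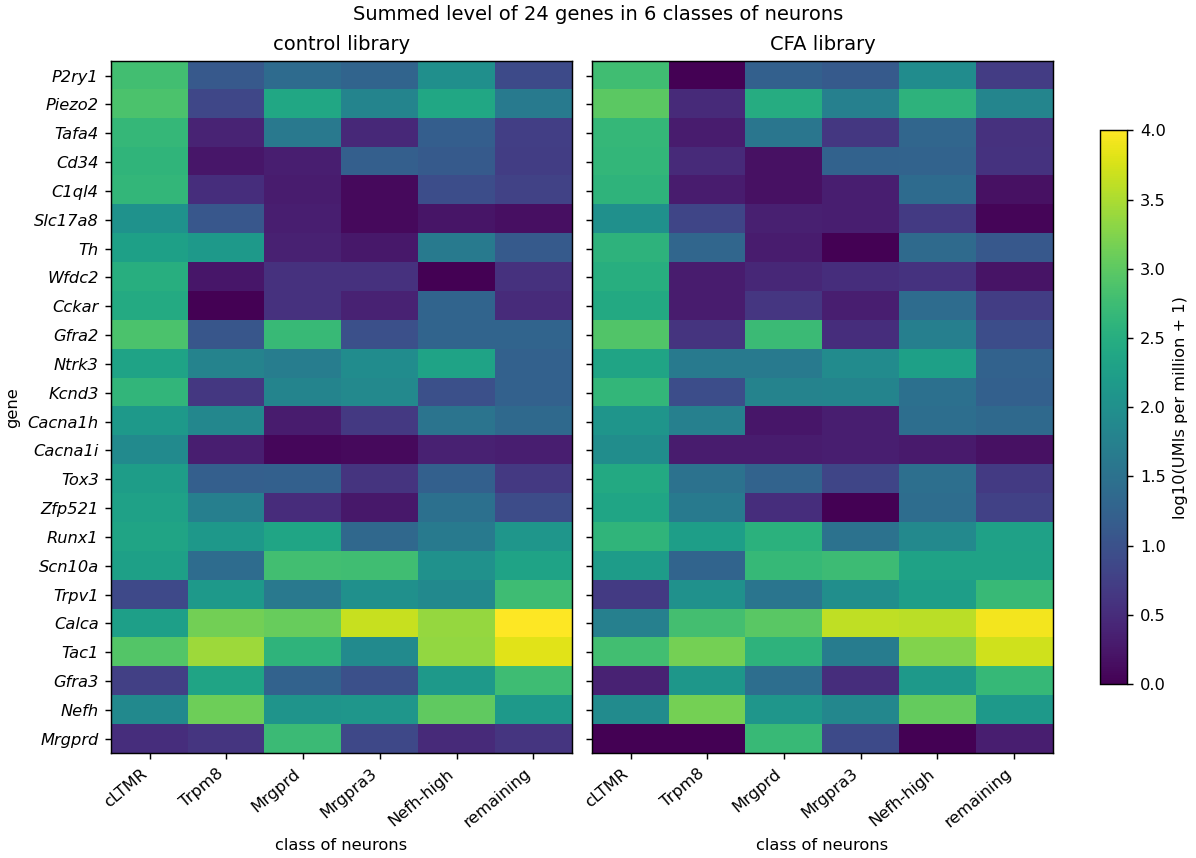
Summed level of 24 genes (rows) in cLTMRs and 5 other classes of neurons (columns), as log10 of CPM plus 1, for the control library (left) and the CFA library (right). The first 16 genes, from P2ry1 to Zfp521, have their highest value in the cLTMR column of both libraries, Gfra2 shares its brightness with Mrgprd neurons, and Calca, Tac1 and Trpv1 are brightest in the remaining neurons.

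A list of 22 genes known for cLTMRs from earlier work overlaps the markers the study drew from these same libraries, so its direction is not independent evidence. Of these 22, 21 were at least 2-fold higher in both libraries and none was lower, with a median log2 ratio of 3.24 and 3.40. The exception was Runx1, with 0.60 (0.49 to 0.71) and 0.97 (0.86 to 1.07). Its level in Mrgprd neurons (227 and 351 CPM) was close to that in cLTMRs (218 and 420.0 CPM).

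Among the trophic factor receptors, Gfra2, which binds neurturin (chr14:70890120-70979838), was found in every member, with a lowest, median and highest value of 181, 695 and 1295 CPM in control members and 238, 765 and 1330.3 CPM in CFA members. Mrgprd neurons also held it (501 and 538 CPM), whereas Trpm8 neurons had 10.8 and 2.95 CPM. Ret, the signalling partner of the Gfra receptors, had log2 ratios of 1.02 and 1.08. Ntrk3, the receptor for neurotrophin 3, was at 212 and 216 CPM in cLTMRs and at 211 and 188 CPM in the Nefh-high neurons. On the other side stood Gfra3, the artemin receptor, with 4.72 and 1.42 CPM against 286 and 277 CPM in the other neurons. Of 9 such receptors tested, 3 were past 2-fold higher and 3 past 2-fold lower.

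Calcium channels open the account of ion channels. Of 10 calcium channel genes, the T-type channels Cacna1h (Cav3.2) and Cacna1i (Cav3.3) and the auxiliary subunit Cacna2d3 were at least 2-fold higher, and Cacna1c, Cacna1e and Cacna2d1 at least 2-fold lower. Cacna1i (chr15:80287238-80398279) had 80.8 and 92 CPM in cLTMRs and 0.748 and 0.751 CPM elsewhere, with a log2 ratio of 6.75 (6.17 to 7.39) and 6.94 (6.07 to 7.96). Cacna1h (chr17:25374285-25433783) had 146 and 119 CPM, and it was shared with Trpm8 neurons at 68.9 and 54 CPM but nearly absent from Mrgprd neurons at 0.982 and 0.765 CPM. The third T-type gene, Cacna1g, had 1 UMI in all members.

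Of 29 potassium and HCN channel genes, 7 were at least 2-fold higher and 12 at least 2-fold lower. The higher ones were Kcnd3 (Kv4.3), Kcnd1 (Kv4.1), Kcna1, Kcna2, Kcna4, Kcnip2 and Dpp10. Kv4 channels carry a transient A-type current and take up auxiliary subunits of the Kcnip and Dpp families, of which Kcnip2 and Dpp10 were higher, Kcnip1 was past 2-fold lower at 7.87 and 4.72 CPM against 17 and 19.2 CPM, and Kcnip3, Kcnip4 and Dpp6 were not past 2-fold. Kcnd3 (chr3:105452330-105674002) was in every member, with a lowest, median and highest value of 41.6, 415 and 1055 CPM in control members and 128, 462 and 1292 CPM in CFA members, and a log2 ratio of 3.58 (3.47 to 3.69) and 3.84 (3.67 to 4.0). Dpp10 was also in every member and reached 747 and 787 CPM, with log2 ratios of 2.64 and 3.16. Kcnip2 showed 357 and 294 CPM, close to the 378 and 359.5 CPM of Mrgprd neurons. Outside this list, the silent modulatory subunit Kcns3 had 0.525 and 0.472 CPM, from 2 and 1 UMIs, against 44.4 and 43.3 CPM, with log2 ratios of -6.40 (-9.45 to -4.55) and -6.52 (-11.82 to -4.04).

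Of 11 sodium channel genes, Scn1a (Nav1.1), Scn3a (Nav1.3), Scn8a (Nav1.6) and the beta subunit Scn4b were at least 2-fold higher, and Scn11a (Nav1.9) at least 2-fold lower. Scn10a (Nav1.8), the tetrodotoxin-resistant channel of C-fibre neurons, had 188 and 160.4 CPM in cLTMRs with 0 and 1 members at 0, which was below Mrgprd neurons (606 and 478 CPM) and above Trpm8 neurons (25.4 and 18.7 CPM). Scn11a followed the same order, with 254 and 225 CPM, 967 and 876 CPM and 48.9 and 25.5 CPM in these 3 classes. Scn1a had a log2 ratio of 2.02 (1.77 to 2.26) and 1.91 (1.58 to 2.23).

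Among 13 channels named for mechanical or stretch sensing, Piezo2, which the rule set, and Tmem63b were at least 2-fold higher. Piezo2 in the other classes was 237 and 390.0 CPM in Nefh-high, 239 and 297 CPM in Mrgprd, 61.9 and 55.2 CPM in Mrgpra3 and 6.16 and 1.96 CPM in Trpm8 neurons. The potassium channels Kcnk2 (TREK-1), Kcnk10 (TREK-2) and Kcnk4 (TRAAK), Asic3 and Tmem63a were at least 2-fold lower. Kcnk2 had 2.36 and 0.472 CPM against 67.1 and 90.2 CPM in the other neurons.

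No TRP channel was past 2-fold higher, and 7 of 12 were past 2-fold lower, including Trpm8, which the rule limits. Trpv1, the heat and capsaicin receptor, was at 6.56 and 3.77 CPM compared with 301 and 298 CPM in the other neurons. Cells with few neuronal transcripts, which are far shallower, showed 13.9 and 13.5 CPM of Trpv1. On average a cLTMR held 0.362 and 0.178 Trpv1 UMIs and such a cell 0.0219 and 0.0190. Trpa1, a receptor for irritants, was at 25.2 and 25 CPM against 323 and 262 CPM, above the 8.32 and 4.94 CPM of those cells, and 17 members of each library held no UMI of it.

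Receptors for transmitters differed by family. Of 10 GABA-A receptor subunits, 4 were at least 2-fold higher, Gabra2, Gabra3 and Gabrb1 among them, and Gabrd, Gabrg1 and Gabrg3 were at least 2-fold lower. Gabra3 was at 78.2 and 125 CPM against 38.7 and 30.6 CPM, with a log2 ratio of 1.02 (0.83 to 1.20) and 2.03 (1.81 to 2.25). Of 17 opioid, cannabinoid and other inhibitory receptors, the serotonin receptor Htr1d alone was at least 2-fold higher and 11 were at least 2-fold lower. Htr1d (chr4:136423524-136444398) had 36.2 and 31.6 CPM in cLTMRs, 27 and 15.2 CPM in Nefh-high neurons and at most 1.15 CPM in the other 4 classes. The µ-opioid receptor Oprm1 had 1 UMI in the members of each library, with log2 ratios of -4.50 (-9.81 to -2.0) and -3.73 (-9.05 to -1.22). The cannabinoid receptor Cnr1 had 3 and 0 UMIs, compared with 25.3 and 33.2 CPM in the other neurons. Of 7 purinergic receptors, P2rx3 and P2rx2, the ATP-gated channels of nociceptors, were the 2 past 2-fold lower, at 3.67 and 0.944 CPM and 4.98 and 1.89 CPM.

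Most peptide genes were lower in cLTMRs than in the other neurons. Of 16 neuropeptides and secreted factors, Tafa4, C1ql4 and Wfdc2 were at least 2-fold higher and 11 were at least 2-fold lower, among them Calca, Calcb, Tac1, Adcyap1, Sst, Nppb, Nts, Gal and Cartpt. Tac1, which encodes substance P, remained at 849.7 and 608 CPM, with a lowest, median and highest value of 0, 812 and 1770.2 CPM in control members and 0, 541 and 1237 CPM in CFA members. This lay above the 127 and 60.3 CPM found in cells with few neuronal transcripts and above Mrgprd neurons (395 and 384 CPM), and far below the remaining neurons (6598 and 5160 CPM). Calca, which encodes CGRP, was at 183 and 54.3 CPM in cLTMRs, and the cells with few neuronal transcripts had 258 and 97.8 CPM. On average a cLTMR held 10.1 and 2.56 Calca UMIs and such a cell 0.406 and 0.138, so the order of the 2 groups of cells turns between UMIs per cell and CPM. The part of free RNA in the Calca level of cLTMRs was not tested.

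The enzymes that act after Th in catecholamine synthesis were nearly absent. Ddc, which makes dopamine from the product of Th, had no UMI in any of the 114 members (a count of 0 allows up to 0.787 and 1.42 CPM), Dbh, which turns dopamine into noradrenaline, had 1, and Pnmt, which makes adrenaline, had 1. Of the genes for the tetrahydrobiopterin cofactor of Th, Gch1, which begins its synthesis, had 3 and 0 UMIs. Pts, which acts later in that synthesis, was at 88.1 and 71.3 CPM, with log2 ratios to the other neurons of 0.49 and 0.21, and Qdpr, which regenerates the cofactor, at 130.3 and 109 CPM, with -1.07 and -1.13. Maoa, which breaks down catecholamines, had 256 and 277 CPM, with log2 ratios of 1.89 and 1.99.

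Of 22 sensory neuron transcription factors, 8 were at least 2-fold higher: Tox3, Zfp521, Pou4f2, Id4, Zfhx3, Casz1, Bhlha9 and Pou4f1. Zfp521 had log2 ratios of 4.34 (4.15 to 4.53) and 4.78 (4.49 to 5.08), Tox3 4.25 (4.05 to 4.45) and 4.59 (4.34 to 4.85) and Pou4f2 4.58 (4.32 to 4.85) and 4.85 (4.47 to 5.24). Tox3 was found in all control and all but 2 CFA members, at 42.9, 161 and 519 CPM in control members and 0, 260.2 and 642 CPM in CFA members. Bhlha9 (chr11:76672470-76673676) was low and was shared with Mrgprd neurons, with 39.6 and 76 CPM in cLTMRs and 34.3 and 31.1 CPM there. Zbtb20 was at 25.2 and 38.7 CPM against 262 and 381 CPM and was 1 of 7 factors past 2-fold lower.

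**Figure D4:**
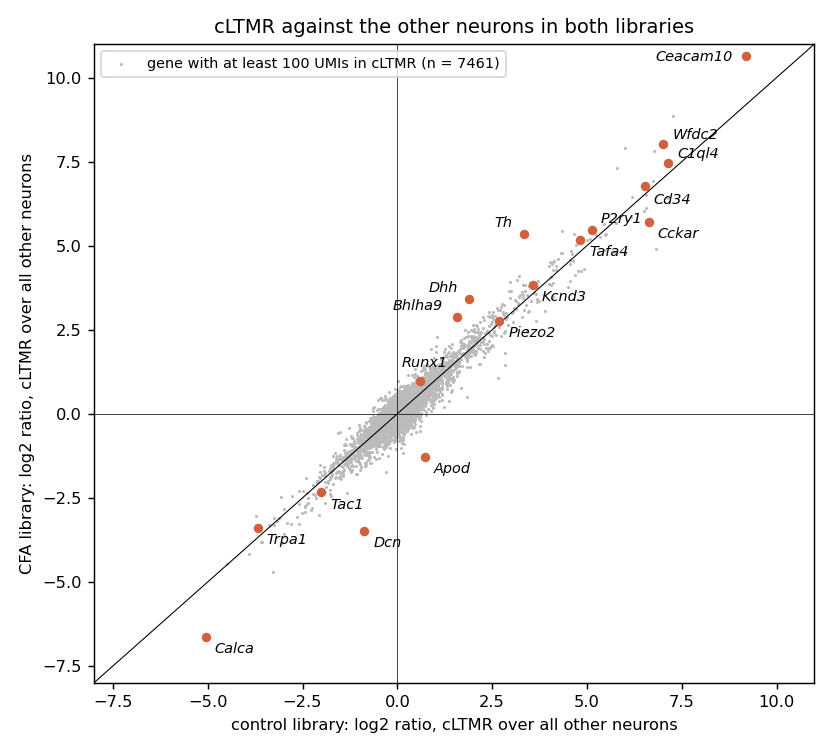
Log2 ratio of the summed level in cLTMRs over all other neurons for 7461 genes with at least 100 UMIs in the members of both libraries together, control library on the x axis and CFA library on the y axis, with equal values on the diagonal. Ceacam10 lies at 9.19 and 10.64 and Calca at -5.05 and -6.64, Th, Dhh and Bhlha9 lie above the diagonal, and Dcn and Apod below it.

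Among genes with at least 200 UMIs in the other neurons, the 15 with the lowest ratios were Faim2, Gna14, Kcns3, Mrgprd, Pcp4l1, Gap43, Gm765, Thbd, Gfra3, Slc7a3, Arhgap15, Tmem233, S1pr3, Cartpt and Mettl7a3. Of these, Mrgprd was set by the rule. Gap43, a growth cone protein, was at 13.6 and 8.02 CPM against 919 and 1051 CPM. Tmem233 was at 20.5 and 7.08 CPM against 1157 and 1199.8 CPM, and Gna14, a G protein subunit, at 2.36 and 0.472 CPM against 227 and 172 CPM. Of 11 nerve injury genes, 8 were past 2-fold lower, among them Atf3, with 90.2 and 59 CPM against 192 and 203 CPM, and Cdkn1a alone was past 2-fold higher, with 473 and 517 CPM against 60.1 and 47.9 CPM. Of 14 immediate early genes 7, and of 19 interferon response genes 12, were past 2-fold lower, and none was past 2-fold higher.

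Marker lists of the other neuron types hold Mrgprd, Nefh and Trpm8, which the rule kept low. Past 2-fold lower in cLTMRs were 5 of 5 markers of NP1 neurons (Mrgprd included), 3 of 4 of NP2 (Mrgpra3) neurons, 4 of 4 of peptidergic neurons, 3 of 3 of neurons with Sst and Nppb, 4 of 5 of neurofilament neurons (Nefh included) and 2 of 2 of cold neurons (Trpm8 included), and none was past 2-fold higher. Of 13 regulators of G protein signalling, Rgs5, Rgs8 and Rgs10 were past 2-fold higher and 6 were past 2-fold lower. Rgs5 was at 1034 and 1037 CPM in cLTMRs and at 1031 and 903 CPM in Mrgpra3 neurons. Of 9 neurofilament and cytoskeleton genes, Gap43 and Nefh alone were past 2-fold lower, and of 12 heat shock chaperones Hspb1 was past 2-fold higher and Hspa1a and Hspa1b past 2-fold lower. No mitochondrially encoded gene of 11 was past 2-fold in either direction.

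RNA of other cell types was scarce in the members. The 42 measured genes of satellite glia, Schwann cells, immune cells, fibroblasts, endothelium and erythroid cells together took up 0.117% of control and 0.0923% of CFA member UMIs, compared with 0.0972% and 0.0836% in the other neurons. The most abundant, the myelin gene Mbp, was at 326 and 342 CPM, with log2 ratios of 1.32 and 1.43. In 1 control member this RNA was 2.28% of UMIs, and 1 control member had a doublet score above 0.25. Slc1a3, Lyz2, Tyrobp, Cd52, Col3a1, Cldn5 and Ly6c1 had no UMI in the CFA members.

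The comparison of CFA with control asks which cLTMR genes differed in the inflamed side. Of 7461 genes with at least 100 UMIs in cLTMRs, 7 (0.0938%) were at least 2-fold higher in the CFA library and 31 (0.415%) at least 2-fold lower, and the median gene lay at -0.01. None of the 22 cLTMR identity genes and, among the 6 markers, Th alone was past 2-fold. Tafa4 had a log2 ratio of CFA over control of 0.02 (-0.09 to 0.14), P2ry1 -0.06 (-0.16 to 0.04), Cd34 0.11 (-0.01 to 0.23) and C1ql4 -0.19 (-0.31 to -0.06). Piezo2 was higher, at 0.43 (0.35 to 0.52), and so it was in the other neurons, at 0.35 (0.27 to 0.43).

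Th was 187 CPM (174 to 201) in the control members and 383 CPM (357 to 410.0) in the CFA members, a log2 ratio of 1.03 (0.89 to 1.18). Over all alternatives the ratio ran from 0.85 to 1.09, the lowest, under 2-fold, with every cell weighted equally, and without the member that held most Th UMIs in each library the ratio was 1.09. In the other neurons Th was 18.6 and 9.42 CPM, a ratio of -0.98 (-1.26 to -0.72). That ratio rested on few cells: Trpm8 neurons held 56% of the control Th UMIs of the other neurons and 1 neuron 34.9%. It was -0.48 (-0.78 to -0.19) without the other neuron with most Th UMIs in each library and -0.03 (-0.36 to 0.28) without the Trpm8 neurons. The 8 and 13 members at 500 CPM or more held most of the Th UMIs, and the intervals of their shares overlap between the libraries. The highest single values were alike, 2106 CPM in the control and 2136 CPM in the CFA library.

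Among the transcription factors, small differences in one direction were frequent. Of 15 sensory neuron transcription factors with enough UMIs, 12 had a higher level in the CFA members, with a median log2 ratio of 0.43, although none was past 2-fold. The same genes in the other neurons had a median of 0.10, and over all genes 3586 of 7461 were higher. Runx1, a factor of Ret neurons (chr16:92601466-92826149), was 218 CPM (204 to 234) in the control members and 420.0 CPM (393 to 448) in the CFA members, and its lowest, median and highest value in single members was 63.3, 205 and 994 CPM in control members and 0, 378 and 819.8 CPM in CFA members. The ratio was 0.94 (0.81 to 1.08) in cLTMRs and 0.58 (0.52 to 0.65) in the other neurons. Bhlha9 had 0.94 (0.61 to 1.27) in cLTMRs and -0.35 (-0.62 to -0.08) in the other neurons, and 27 of 69 and 13 of 45 members held no UMI of it. Mrgprd neurons, which also held Bhlha9, were 22.5% of control and 15.9% of CFA neurons. The part of this difference in the ratio of the other neurons was not tested. Over all alternatives the Bhlha9 ratio in cLTMRs ran from 0.89 to 1.62, past 2-fold at its highest. Zbtb20 had 0.62 in cLTMRs and ran from -0.97, with neurons thinned to 5000 UMIs, to 1.26. Tox3 had 0.69 (0.53 to 0.86), Zfhx3 0.68 (0.55 to 0.80), Pou4f1 0.44 (0.35 to 0.52) and Casz1 0.43 (0.30 to 0.56) in cLTMRs, compared with 0.35, 0.22, 0.10 and -0.15 in the other neurons.

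**Figure D5:**
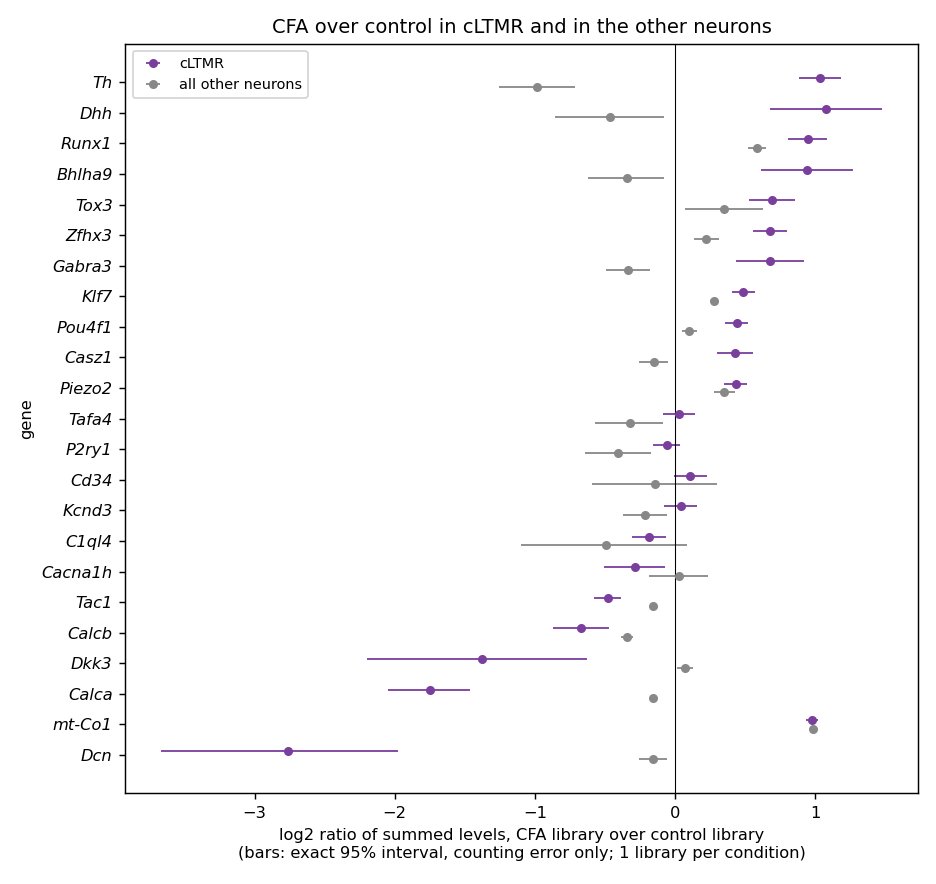
Log2 ratio of the CFA over the control library for 23 genes, in cLTMRs (purple) and in all other neurons (grey); points are ratios of summed levels and bars exact 95% intervals that cover counting error only. Th lies at 1.03 in cLTMRs and -0.98 in the other neurons, mt-Co1 at 0.98 and 0.98, and Calca at -1.75 and -0.16.

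Also past 2-fold higher were Clvs1, Gm4204, Dhh, Lrrc17 and Gm11598. Dhh, which encodes Desert hedgehog, had 26 CPM (21.1 to 31.6) in the control members and 54.7 CPM (45.2 to 65.7) in the CFA members, a ratio of 1.08 (0.68 to 1.48), while the other neurons had 7.05 and 5.12 CPM. Without the top member in each library, Dhh was 0.99 and Clvs1 0.90, both under 2-fold. After thinning to 5000 UMIs, Clvs1 was 0.62, Gm4204 0.75 and Gm11598 0.35, all under 2-fold as well. With thresholds of 400 CPM on P2ry1 and Piezo2, Clvs1 was 0.90, Gm11598 0.82 and Lrrc17 0.71, and with 100 CPM Dhh was 0.96. Schwann cells, which make Dhh, are among the cells with few neuronal transcripts, and these had 212 and 176 CPM of Dhh. The part of their RNA in the Dhh level of cLTMRs was not tested. Clvs1, Gm4204, Lrrc17 and Gm11598 were higher in the other neurons too, with ratios of 0.67, 0.81, 1.51 and 1.20. Gabra3 was below 2-fold at 0.68 (0.43 to 0.92), with -0.34 (-0.50 to -0.18) in the other neurons.

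Among the 31 lower genes, Calca had -1.75 (-2.05 to -1.46) in cLTMRs, and its lowest, median and highest value in single members was 0, 163 and 578 CPM in control members and 0, 47.6 and 236 CPM in CFA members. In cells with few neuronal transcripts Calca was 258 and 97.8 CPM, so the level there was lower in the CFA library as well; in the other neurons the ratio was -0.16. Tac1 had -0.48 (-0.58 to -0.39) in cLTMRs and -0.16 in the other neurons, and Calcb -0.67 (-0.87 to -0.47) and -0.34. The fibroblast genes Dcn and Apod had -2.76 (-3.66 to -1.98) and -2.13 (-2.59 to -1.70). Single control members held 50.3% of the Dcn and 65% of the Apod UMIs, and without the top members the ratios were -1.96 and -0.97. The interferon-induced gene Ifit1 had -1.67 (-2.41 to -0.99), with 1 control member holding 46.7% of its UMIs, and Dkk3, a secreted Wnt regulator, -1.37 (-2.20 to -0.63) compared with 0.07 in the other neurons. The Dkk3 ratio was under 2-fold, at -0.90, in members with 400 CPM or more of P2ry1 and Piezo2.

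Th, Runx1, Bhlha9 and Piezo2, given above, are among 12 genes the study named for cLTMRs, whose median ratio was 0.39 in cLTMRs and 0.30 in the other neurons. Of the further ones, mt-Co1, a subunit of cytochrome c oxidase, had 0.98 (0.93 to 1.02) in cLTMRs and 0.98 in the other neurons, Napb, a vesicle fusion protein, 0.41 (0.31 to 0.51) and 0.42, and Actb, a cytoskeletal actin, 0.37 (0.31 to 0.42) and 0.37. Ywhaz, a 14-3-3 protein, had 0.28 (0.22 to 0.34) and 0.36, and Cfl1, which severs actin filaments, 0.25 (0.20 to 0.30) and 0.24. The differences between these ratios were not tested. Of 11 mitochondrially encoded genes, 5 were higher in the CFA members, with a median of -0.03, and mt-Nd6 was past 2-fold lower. As the study chose its 12 genes on the same libraries, their direction here is not independent evidence.

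Of 6 nerve injury genes with enough UMIs, Stmn4 was past 2-fold lower in the CFA library, and of 10 immediate early genes, Nr4a1. Atf3 had -0.61 (-0.92 to -0.31), Jun -0.43 (-0.71 to -0.17), Fos 0.19 (0.04 to 0.34) and Egr1 0.35 (0.10 to 0.61). Nr4a1, a nuclear receptor of the immediate early genes, had -1.26 (-2.04 to -0.54), with -0.23 in the other neurons, and was under 2-fold, at -0.98, with every cell weighted equally. No sodium, calcium, potassium, TRP or GABA-A receptor gene with enough UMIs was past 2-fold between the libraries. Over all 7461 genes, 0.0938% were past 2-fold higher and 0.415% past 2-fold lower. At these shares, lists this short would hold few such genes or none. The list medians were 0.03 for 11 sodium, -0.03 for 7 calcium and -0.03 for 20 potassium and HCN genes. They were -0.01 for 5 TRP and 0.23 for 6 GABA-A receptor genes. In the other neurons the GABA-A receptor genes had a median of 0.01.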

How the data were processed

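TG cells of 1 control and 1 CFA mouse library (BD Rhapsody) were analysed. The authors deposited whole-number UMI counts per gene and cell, not normalized, for the cells their pipeline had called. Their processing notes name fastp and the build GRCm38; the aligner, the annotation and other versions are not given in the sources used here. Column totals give a depth of 48916096 and 22096268 UMIs, and 0 columns were left unused.

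Cells, neurons and cLTMRs were filtered as described above. Other neurons were put in the first class that fitted: Trpm8 (over 2 UMIs), Mrgprd (at least 100 CPM), Mrgpra3 (at least 100 CPM), Nefh-high (at least 500 CPM) or remaining. For every class, UMIs were added up within a library, and CPM of that total carry exact Poisson intervals. CPM of UMIs are not corrected for gene length. Shares have Clopper-Pearson intervals and log2 ratios conditional exact binomial intervals, at 95%. Called means 2-fold: over other neurons in both libraries with at least 100 UMIs in all neurons, or CFA over control with at least 100 UMIs in cLTMRs. Where a class had 0, a floor of 3 UMIs for that class was used for the call. Background RNA was read from kept cells, other than neurons, with at most 2 UMIs of Tubb3, Snap25 and Stmn2 (5580 and 3156 cells). Doublets were scored with Scrublet and kept. Ratios and intervals were tested on simulated data. With 1 library per condition and cells chosen by their own expression, no test was made.

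Members and gene lists were chosen with earlier results of these data known. Named genes are the rule and marker genes, the lists, the 15 highest and 15 lowest ratios over other neurons, the 10 highest and 10 lowest ratios of CFA over control, the 15 genes that varied most between members, and 12 genes the study names. For the 15 highest ratios a gene needed at least 20 UMIs in the members, and for the 15 lowest at least 200 UMIs in the other neurons. Positions are from GENCODE M21 (398 of 403 symbols matched). Alternatives were other cell, threshold, count and doublet limits, other totals, equal weights, thinning to 5000 UMIs, centring and Mrgprd neurons alone as the comparison; leaving out the member, or the other neuron, with most UMIs of a gene, and the Trpm8 neurons, was chosen after seeing the data. Tools were Python 3.11.15, numpy 2.4.6, scipy 1.17.1, pandas 2.3.3, scanpy 1.11.5 and matplotlib 3.10.9. Some genes are not reported here.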

Additional observations from a re-analysis of the deposited data

Results flagged for a closer look

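Among the genes named here, 5 had a log2 ratio of CFA over control of at least 0.5 in size in cLTMRs and at least 0.25 in size the other way in all other neurons, with both intervals apart from 0 (that of Bst2 in cLTMRs barely). With 1 library per condition the difference between these ratios was not tested. For Th the ratio was 1.03 (0.89 to 1.18) in cLTMRs and -0.98 (-1.26 to -0.72) in the other neurons, but -0.03 (-0.36 to 0.28) in the other neurons without the Trpm8 neurons. For Dhh it was 1.08 (0.68 to 1.48) and -0.46 (-0.86 to -0.08). Bhlha9, a transcription factor, had 0.94 (0.61 to 1.27) and -0.35 (-0.62 to -0.08), and the GABA-A receptor subunit Gabra3 0.68 (0.43 to 0.92) and -0.34 (-0.50 to -0.18). In these 3 genes the ratio in the other neurons stayed below 0 without the Trpm8 neurons and without the other neuron with most UMIs. Bhlha9 was shared with Mrgprd neurons, which made up 22.5% of control and 15.9% of CFA neurons. The part of this change in the mix of neurons in the ratios of the other neurons was not tested. With neurons thinned to 5000 UMIs, Gabra3 was 0.39 in cLTMRs, under the limit of 0.5. Bst2, an interferon-induced membrane protein that was not described above, had 0.55 (0.00 to 1.10) in cLTMRs, from 17 and 25 CPM, and -0.42 (-0.56 to -0.28) in the other neurons. Without the member with most of its UMIs in each library Bst2 was 0.29 in cLTMRs, under that limit, and over all alternatives it ran from 0.29 to 1.75.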

How the results depend on the processing

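With 1 library per condition, no spread between mice can be given, and intervals cover counting error alone. No paired analysis was possible because each condition has 1 library and no result comes from a test. The number of genes past 2-fold higher in CFA cLTMRs, 7, became 12 with thresholds of 100 CPM on P2ry1 and Piezo2, 15 with every cell weighted equally, 2 with neurons thinned to 5000 UMIs, 24 with at least 50 UMIs and 4 with at least 200. The number past 2-fold lower, 31, became 51 with equal weights, 0 after thinning, 96 with at least 50 UMIs and 8 with at least 200. After thinning, 1200 genes were left to compare, which lowers these counts. Over other neurons, 673 higher and 1565 lower genes of 12946 became 298 and 610 of 7844 after thinning. With Mrgprd neurons alone as the comparison, 772 of 10446 genes were lower. The numbers of genes compared differ, so these counts are not directly comparable. Against Mrgprd neurons alone, several log2 ratios turned, in the control and the CFA library: Kcnip1 0.44 and 0.040, Kcnip2 -0.082 and -0.29, P2rx2 1.55 and 1.89, Tac1 1.10 and 0.66, and Slc17a7 2.14 in the control. Without limits on Mrgprd, Trpm8 and Nefh, Slc17a7 was 0.15 and 1.68. The cause was not tested.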
